A study of Drosophila melanogaster with 12 samples.

Results

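The genes described here encode the proteins of the cytoplasmic ribosome of Drosophila melanogaster. They were chosen by name: every gene of the count table whose FlyBase symbol begins with RpL (large subunit) or RpS (small subunit) followed by a digit or by P, which leaves out the mRpL and mRpS genes of the mitochondrial ribosome. This gave 84 genes of the 14869 in the table: 47 RpL genes and 33 RpS genes that name a core protein or its relative, and 4 RpLP genes that name proteins of the ribosomal stalk or a relative of them. A further 8 symbols of the family (RpL8, RpL27A, RpL37A, RpS6, RpS10b, RpS24, RpS26 and RpS29) were not matched to an identifier of the table and are not analysed here.

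Ribosomal proteins coat the ribosomal RNA of both subunits and are needed in nearly equal amounts, so their mRNAs are among the most abundant of any growing cell. Most proteins are made from a single gene in the fly, and losing a copy of many of these genes gives the dominant Minute phenotype of slow development and thin bristles. The wing disc, an epithelium that proliferates during larval life, is the tissue in which competition between such Minute cells and their normal neighbours has mostly been studied. The mRNAs are short, which matters for several of the values below.

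The study asked how the chromatin protein ASH1, a histone methyltransferase of the Trithorax group, acts when its BAH domain and an AT hook are disrupted, and RNA was taken from wing discs of larvae of the third instar raised at 25 degrees. There were 4 genotypes with 3 libraries each, made from separate RNA preparations. Wild type was w[1118]. The other 3 lines carried P{pTub - EGFP::ASH1}, a transgene with full-length ASH1 (ASH1 WT), ASH1 without the BAH domain (ΔBAH) or ASH1 without the BAH domain and with the first AT hook mutated (ΔBAH mutAT1), over the mutant alleles ash1[10]/ash1[22]. The αTubulin promoter drove each transgene from the same landing site on chromosome arm 2L, so wild type differs from every line in both the transgene and the ash1 alleles.

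Totals ranged from 15083960 to 39180697 counts per library. The internal IDs of the libraries fall into 3 blocks of consecutive numbers, called library ID blocks here: block 1 holds wild type replicate 1 and ΔBAH mutAT1 replicate 1, block 2 holds ASH1 WT replicate 1, ΔBAH replicate 1 and replicate 2 of wild type and of ΔBAH mutAT1, and block 3 holds the other 6 libraries. The study states 3 sequencing runs without saying which library was in which, so reading the blocks as runs is an inference. Block 3 libraries had at most 17828101 counts and all others at least 27871145, so ID block and depth cannot be told apart. ash1 itself was at 85.6 to 112 CPM (each library's counts scaled to a common total with TMM factors) in wild type and at 155 to 534 CPM in the transgenic libraries, without overlap. Of the markers of the disc epithelium, vg, nub, sd and Dll summed to 752 to 1389 CPM in all libraries. The 6 fat body markers summed to 2819 CPM in wild type replicate 1 and to between 13.6 and 361 CPM in the others, and no fat body marker was at 3 counts or fewer throughout. The part of this in the results below was not tested, but every comparison was also made without that library. The sums of the other marker lists were at most 76.2 CPM.

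Ribosomal protein mRNAs were very abundant in these discs. Levels are compared between genes as CPM per kb of exons, with exon lengths from the BDGP6 annotation. The median over the 77 genes that passed the filter on low counts was 1520 CPM per kb, against 17.3 over all 7645 genes tested that have an exon length. Of the 84 genes, 60 were at 1000 CPM per kb or more, 12 between 100 and 1000, 2 between 10 and 100, and 10 under 10. Large and small subunit genes lay at like levels, with medians of 1509 CPM per kb over 43 genes and 1558 over 30.

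The highest level per length was that of RpL41, the shortest ribosomal protein, at 5492 CPM per kb (3557 to 9052 over the 12 libraries). RpS27A, made as a fusion with ubiquitin, followed at 3609 CPM per kb (2246 to 6380). The stalk protein gene RpLP2 was at 2680 and RpL6 at 2429 CPM per kb. Within libraries RpL41 was above RpS27A in 12 of 12, RpS27A above RpLP2 in 11 of 12 and RpLP2 above RpL6 in 8 of 12, so the order of the last pair was not stable.

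At the other end, 7 genes did not pass the filter. RpL15, RpL10Aa and RpS28a were at 0 counts in all 12 libraries; RpL15 encodes a core protein of the large subunit and has no close copy among these genes, so its 0 is a value of this table alone. RpL37-2 had 1 count in all, RpL7-like had 4, all in ASH1 WT replicate 2, RpS28-like had at most 4 in any library and RpS10a at most 7.

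**Figure D1:**
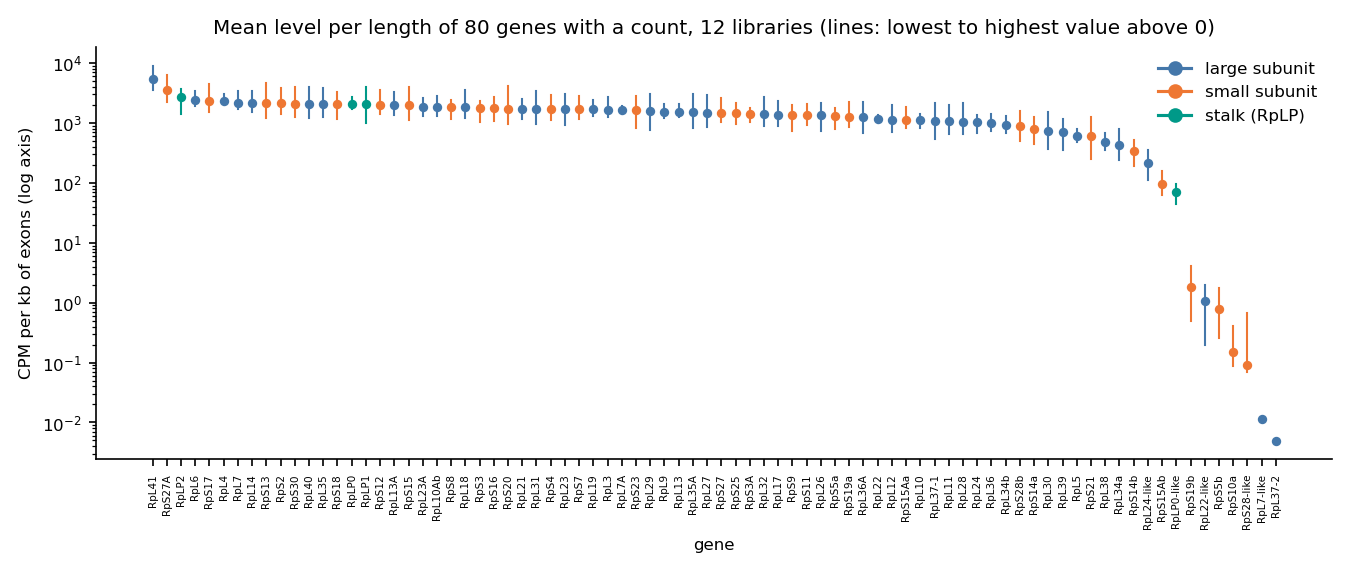
Mean level of 80 ribosomal protein genes with at least 1 count, as CPM per kb of exons on a log axis, ordered from the highest to the lowest; points are means over 12 libraries, lines run from the lowest to the highest value above 0, and colours give the subunit. Most genes form a plateau at or above 1000 CPM per kb, followed by a steep drop at the copies and relatives named in the text.

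The low end consisted mostly of duplicated genes, in which 1 copy carried nearly all counts. RpS5b, RpS19b and RpL22-like, copies best known from the germline, were at 0.770, 1.81 and 1.08 CPM per kb. RpS5b held 0.020% to 0.099% of the counts of the RpS5a and RpS5b pair, RpS19b 0.031% to 0.113% of its pair with RpS19a, and RpL22-like 0.021% to 0.198% of its pair with RpL22. The germline markers summed to 0.238 to 2.10 CPM in these libraries, and Mst87F was at 3 counts or fewer in each. RpL10Aa and RpS28a were at 0 beside RpL10Ab and RpS28b, at 1867 and 906 CPM per kb, and RpL37-1, at 1080, carried all but 1 count of its pair.

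Other pairs were shared. RpL34a held 19.2% to 29.7% of the counts of its pair with RpL34b, RpS14b 18.8% to 24.5% of its pair with RpS14a, and RpS15Ab 4.92% to 7.66% of its pair with RpS15Aa. RpS14a and RpS14b are neighbours on the X chromosome (7933742 to 7934677 and 7934898 to 7935792 in BDGP6). Reads of 50 bases cannot always be assigned within such a pair, and the treatment of multiply mapped reads is not given in the sources used here, so the split between copies is uncertain. RpL24-like held 8.87% to 14.3% of the counts of RpL24 and RpL24-like, and RpLP0-like 1.68% to 3.04% of those of RpLP0 and RpLP0-like. Their yeast relatives, Rlp24 and Mrt4, act in assembling the large subunit and are replaced by the ribosomal protein itself. RpL7-like is a relative of yeast Rlp7.

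The ribosomal protein genes matched here together took between 7.67% and 16.6% of a library's counts, a share that leaves out the unmatched symbols of the family. In wild type the share was 11.5%, 10.8% and 8.17% in replicates 1 to 3, in ASH1 WT 16.6%, 7.67% and 8.81%, in ΔBAH 15.6%, 7.93% and 8.23%, and in ΔBAH mutAT1 12.3%, 11.7% and 8.65%. The genotypes overlap: their means were 10.2% ± 1.76 (SD, n = 3), 11.0% ± 4.87, 10.6% ± 4.34 and 10.9% ± 1.98. The ID blocks did not overlap in the same way, as the 6 libraries of block 3 lay between 7.67% and 8.81%, and the other 6 between 10.8% and 16.6%. The highest shares, in ASH1 WT replicate 1 and ΔBAH replicate 1, stood apart within block 2, where wild type replicate 2 and ΔBAH mutAT1 replicate 2 were at 10.8% and 11.7%.

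**Figure D2:**
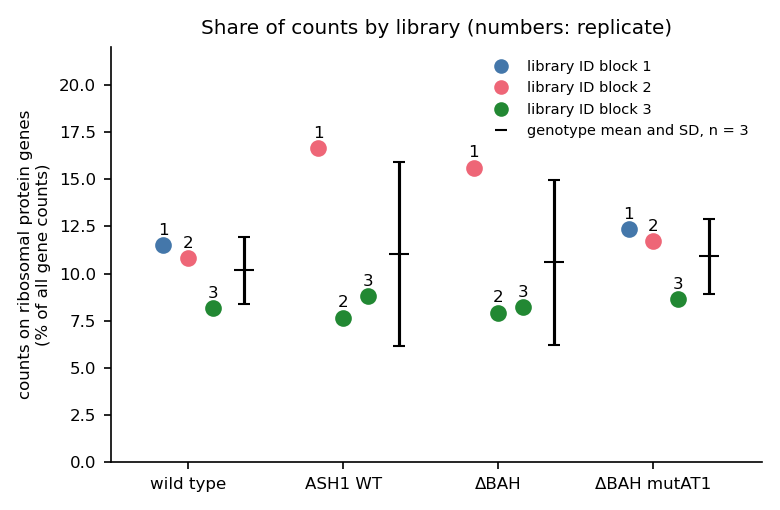
Share of each library's gene counts that fell on the 84 ribosomal protein genes, in percent, by genotype; points are libraries numbered by replicate and coloured by library ID block, and bars give the genotype mean and SD (n = 3). All 6 libraries of block 3 lie between 7.67% and 8.81%, below every other library, and the genotype means differ by less than their SDs.

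Both subunits moved together. The ratio of small to large subunit counts stayed between 0.566, in ASH1 WT replicate 2, and 0.687, in ΔBAH replicate 1. ASH1 WT replicate 1 was the highest of the 12 libraries for 63 of the 77 genes, and ASH1 WT replicate 2 or ΔBAH replicate 2 the lowest for 62 (36 and 26).

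In the model of genotype alone, no ribosomal protein gene passed the test between genotypes. With edgeR's quasi-likelihood test and adjustment over all 8346 genes tested, 0 of 77 had an adjusted p below 0.05 in ASH1 WT, ΔBAH or ΔBAH mutAT1 when set against wild type, where 1.92%, 1.93% and 2.17% of all genes were called. The same count, 0 of 77, held for the mean of the transgenic lines against wild type (3.15% of all genes called), for ΔBAH against ASH1 WT (0.0% called) and for ΔBAH mutAT1 against ΔBAH (0.0479% called). At an unadjusted p below 0.05 there were also 0 in each of these 6 comparisons with edgeR and with limma-voom. DESeq2 gave 0 or 1 and called none of the 77 after adjustment. Over all 8346 genes edgeR gave 674 to 889 in comparisons with wild type. It gave 103 in ΔBAH against ASH1 WT and 163 in ΔBAH mutAT1 against ΔBAH. With the ID block as a covariate, edgeR gave 18 of 77 in ASH1 WT against wild type (1922 of all genes). In each of the other comparisons it then gave 0 to 5 of 77 (389 to 2122 of all genes). Wild type serves as the reference of 4 of these comparisons, so they are not independent.

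The median log2 fold change of the 77 genes was 0.15 for ASH1 WT, 0.08 for ΔBAH and 0.06 for ΔBAH mutAT1 against wild type, beside medians of 0.01, 0.00 and -0.00 over all genes. It was 0.08 for the mean of the lines, -0.09 for ΔBAH against ASH1 WT and 0.02 for ΔBAH mutAT1 against ΔBAH. Standard errors of single genes had a median of 0.37 against wild type in this model of genotype alone. Changes of the size of these medians could therefore not have been detected gene by gene in it. The spread between libraries of a genotype (biological CV) was 32.0% in this model and 14.4% with the ID block added. With the ID block as a covariate the medians against wild type were 0.31 (ASH1 WT), 0.20 (ΔBAH) and 0.07 (ΔBAH mutAT1). In the model of genotype alone, leaving out ASH1 WT replicate 1 gave a median of -0.34 for ASH1 WT against wild type. Leaving out ΔBAH replicate 1 gave -0.36 for ΔBAH against wild type. Each of these fits left the line with libraries of ID block 3 only, against wild type libraries of every block. Block and genotype therefore cannot be told apart in them, and no direction of a genotype change can be read from these medians. Large subunit, small subunit and stalk genes had medians of 0.15, 0.17 and -0.04 for ASH1 WT against wild type. For ΔBAH these were 0.08, 0.08 and -0.14, and for ΔBAH mutAT1 0.06, 0.06 and 0.12.

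**Figure D3:**
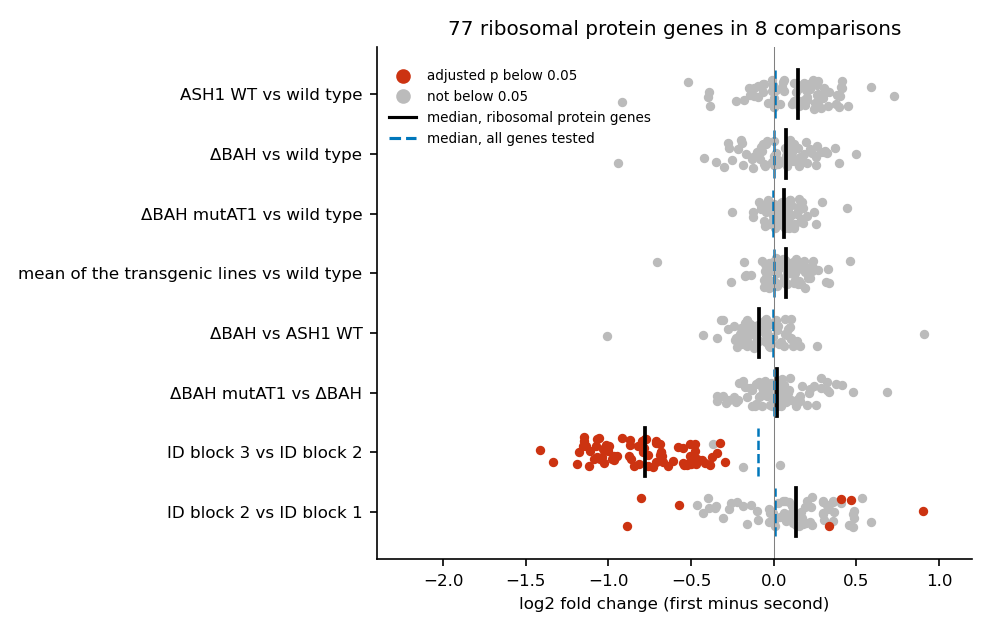
Log2 fold changes of the 77 tested ribosomal protein genes in 6 comparisons between genotypes and 2 between library ID blocks; each point is a gene, red where the adjusted p was below 0.05, black bars are medians of these genes and dashed blue bars medians of all 8346 genes tested. No gene is red between genotypes, whereas 74 of 77 are red and lower in ID block 3 against ID block 2, with a median of -0.78.

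Within a block the lines can be set beside wild type library by library. In block 2 the median log2 ratio of the 77 genes to wild type replicate 2 was 0.68 for ASH1 WT replicate 1 (76 of 77 genes higher), 0.52 for ΔBAH replicate 1 (72 higher) and 0.04 for ΔBAH mutAT1 replicate 2 (47 higher). In block 3 the ratios to wild type replicate 3 were -0.15 and 0.11 for ASH1 WT replicates 2 and 3, -0.13 and 0.01 for ΔBAH replicates 2 and 3, and 0.05 for ΔBAH mutAT1 replicate 3. In block 3 no line was above 0.11, against 0.68 and 0.52 for ASH1 WT and ΔBAH in block 2. In block 1 the ratio of ΔBAH mutAT1 to wild type was 0.06. Other genes with 501 to 1200 bp of exons, 1368 in number, gave ratios of 0.51, 0.42 and 0.08 in block 2 for the same libraries.

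RpL23A, a large subunit protein at the mouth of the exit tunnel, had the smallest or next smallest p among genes with a positive change against wild type in every line. Its level in wild type was 1985, 2608 and 1720 CPM in replicates 1 to 3. It was 3486, 2587 and 2246 CPM in ASH1 WT, 3351, 2166 and 2027 in ΔBAH, and 2406, 3229 and 2101 in ΔBAH mutAT1. The groups overlap over all libraries, but wild type was the lowest library of each ID block, as it also was for RpL4 and RpS15Ab. The log2 fold change was 0.40 (SE 0.27, adjusted p = 0.938, edgeR) in ASH1 WT, 0.26 (SE 0.27) in ΔBAH and 0.29 (SE 0.27) in ΔBAH mutAT1.

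With the ID block as a covariate RpL23A was called, and it was then the only called gene of the 77: 0.46 (SE 0.11, adjusted p = 0.022, edgeR) in ASH1 WT against wild type, where 7.3% of all genes were called, and 0.36 (SE 0.09, adjusted p = 0.0216) in the mean of the lines, where 11.1% were. RpL23A lies on chromosome arm 3L (1666288 to 1668654 in BDGP6, minus strand) and its gene model overlaps Uhg7 and 4 snoRNA genes on the same strand and CG7974 on the other, so counts of this locus need not all come from its mRNA. Without the exon length trend described below and with the ID block as a covariate, a fit chosen after seeing the data, 5 genes were called higher in ASH1 WT (RpL23A, RpL27, RpL31, RpS4 and RpS20, 0.30 to 0.52), where 11.0% of all genes were called.

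RpL4, another large subunit protein, was at 2920, 3211 and 2824 CPM in wild type and at 4216, 3260 and 3284 in ASH1 WT, so that every ASH1 WT library was above every wild type library. Its log2 fold change was 0.27 (SE 0.19, adjusted p = 0.963, edgeR). RpL22 gave the smallest p of any ribosomal protein gene between genotypes. It was at 1217, 1198 and 1122 CPM in ASH1 WT and at 1475, 1387 and 1389 in ΔBAH, without overlap. The difference of 0.26 (SE 0.14, adjusted p = 1.0, edgeR) did not pass. In ΔBAH mutAT1 RpL22 was at 1251, 1095 and 1280 CPM and in wild type at 1184, 1213 and 1375.

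The other genes with the smallest p between genotypes, in either direction, were not called. RpL22-like was at 1.69, 2.41 and 1.48 CPM in wild type, at 1.90, 0.25 and 0.74 in ASH1 WT, at 1.43, 1.02 and 0.40 in ΔBAH, and at 1.67, 1.91 and 1.07 in ΔBAH mutAT1, from 4 to 73 counts per library. Its log2 fold changes were -0.92 (SE 0.64), -0.94 (SE 0.64) and -0.25 (SE 0.63) against wild type. RpS5b and RpS19b, with 4 to 46 and 5 to 79 counts per library, differed between ΔBAH and ASH1 WT by 0.91 (SE 0.71) and -1.01 (SE 0.65). RpS3A, the family's gene on chromosome 4, had -0.28 (SE 0.25) in ΔBAH and -0.18 (SE 0.20) in the mean of the lines. RpS15Ab had 0.45 (SE 0.37) in ΔBAH mutAT1 against wild type. RpL38 differed by -0.34 (SE 0.25) between ΔBAH and ASH1 WT and by 0.32 (SE 0.25) between ΔBAH mutAT1 and ΔBAH, and RpL28 by -0.31 (SE 0.49) between the latter.

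RpLP0, RpLP1 and RpLP2 form the stalk that recruits elongation factors to the ribosome. RpLP0 was at 2611, 3220 and 2448 CPM in wild type and at 3652, 2451 and 2541 in ASH1 WT. RpLP1 was at 1668, 1523 and 1035 CPM in wild type and at 3024, 781 and 1018 in ASH1 WT; over all 12 libraries it spanned 1.95 on the log2 scale. RpLP2 was at 2230, 1741 and 1297 CPM in wild type, at 1885, 871 and 1252 in ASH1 WT, at 1728, 1369 and 1320 in ΔBAH, and at 2274, 2031 and 1430 in ΔBAH mutAT1. Its log2 fold change was -0.39 (SE 0.30) in ASH1 WT against wild type and 0.38 (SE 0.30) in ΔBAH mutAT1 against ΔBAH, neither of which passed the test. RpLP0, which binds the ribosomal RNA directly, varied least of the 3, with an SD within ID blocks of 0.07 on the log2 scale against a median of 0.24 for all 77 genes.

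Between ID blocks nearly all ribosomal protein genes changed. In a model of genotype and ID block, 74 of 77 were lower in block 3 than in block 2 at an adjusted p below 0.05 and 0 were higher, where 35.0% of all genes were lower and 29.2% higher. The median was -0.78, beside -0.09 over all genes. Of the large subunit 41 of 43 genes were called lower, of the small subunit 29 of 30, and of the stalk genes 4 of 4. Without both high libraries of block 2 (ASH1 WT replicate 1 and ΔBAH replicate 1), 48 of 77 were lower and 0 higher, with a median of -0.42, where 21.9% of all genes were lower. Both libraries were picked for this fit after their high shares were seen. The same direction held within genotypes: wild type replicate 3 against replicate 2 gave a median of -0.45 (4 of 77 higher), and ΔBAH mutAT1 replicate 3 against replicate 2 gave -0.40 (4 higher).

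**Figure D4:**
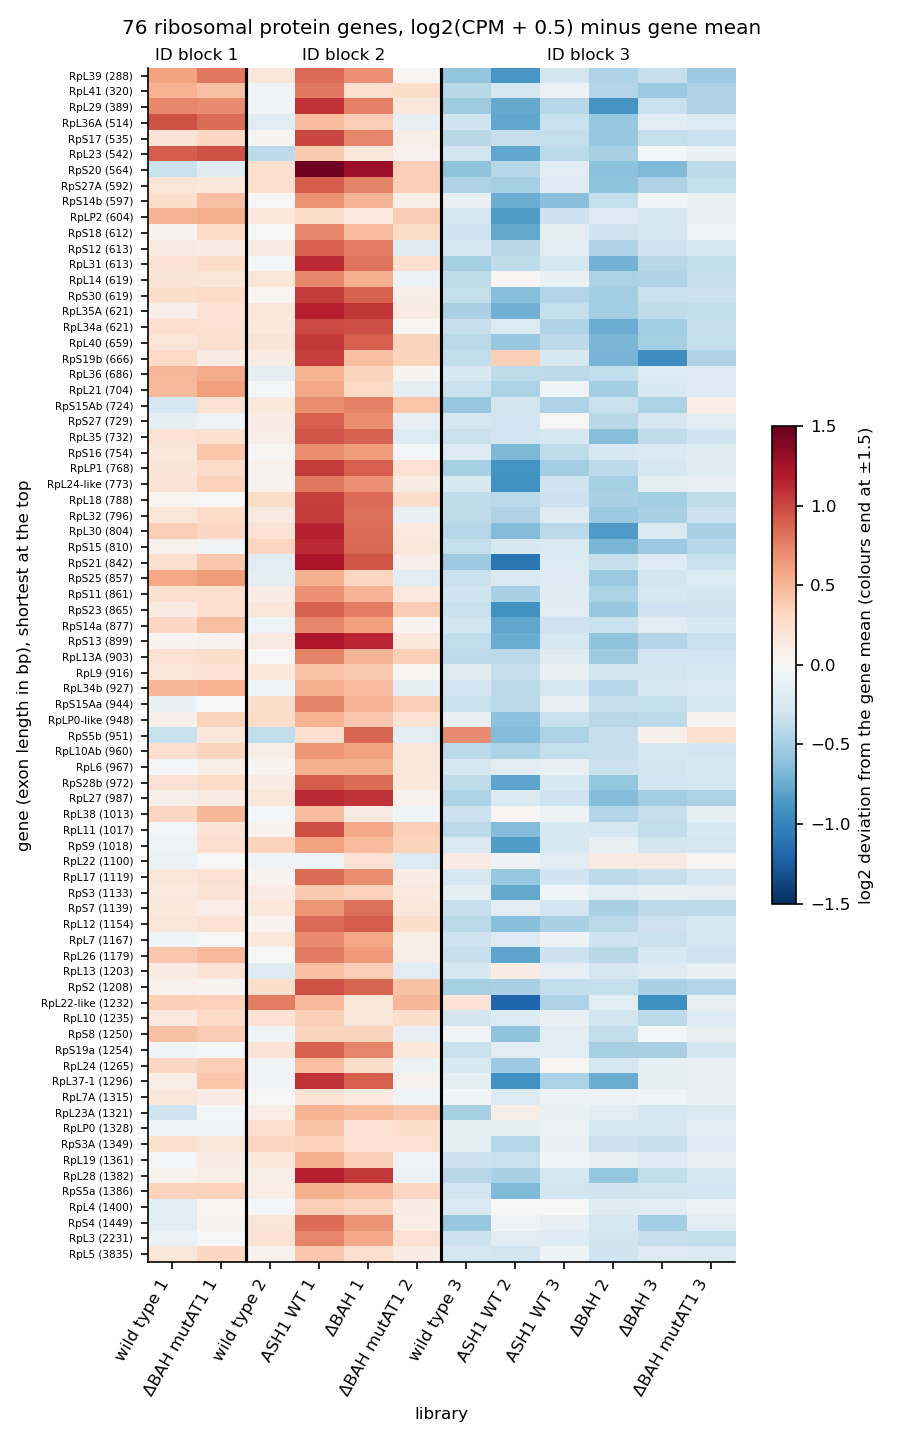
Log2(CPM + 0.5) of 76 tested ribosomal protein genes minus each gene's mean over 12 libraries; columns are libraries grouped by library ID block, rows are genes with their exon length in bp, shortest at the top. ASH1 WT replicate 1 and ΔBAH replicate 1 are high for most genes, the 6 libraries of block 3 are low, and RpL22 and RpL7A change little.

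RpS20, a small subunit protein, fell most, by 1.41 on the log2 scale (SE 0.16, adjusted p = 2.03e-05, edgeR). It was at 1024, 2360, 2093 and 1110 CPM in block 2 (in the order wild type, the ASH1 WT line, the ΔBAH line, the ΔBAH mutAT1 line), and at 543 to 763 CPM in block 3, without overlap. RpS2, near the mRNA entry of the small subunit, had the smallest p: it was at 2933, 4714, 4464 and 3300 CPM in block 2 and at 1732 to 1902 in block 3, and fell by 1.12 (SE 0.11, adjusted p = 4.66e-06). RpS27A fell by 1.03 (SE 0.11), RpL18 by 1.07 (SE 0.12) and RpS15Aa by 0.79 (SE 0.09). The 3 genes not called were RpL22 (0.04, SE 0.08), RpL7A (-0.19, SE 0.08) and the rare RpS5b (-0.37, SE 0.58). RpL22, whose protein in flies carries an added stretch like histone H1, was at 1213, 1217, 1475 and 1095 CPM in block 2 and at 1122 to 1389 in block 3, and RpL22 and RpL7A had the smallest SDs over all 12 libraries, 0.13 each on the log2 scale.

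Block 2 against block 1 gave another pattern, with only 2 libraries in block 1. RpS20 (0.90, SE 0.25), RpL23A (0.41, SE 0.11), RpS15Aa (0.47, SE 0.13) and RpLP0 (0.34, SE 0.11) were higher, 4 of 77 where 6.55% of all genes were called higher. RpL23 (-0.89, SE 0.23), RpL36A (-0.80, SE 0.22) and RpS25 (-0.57, SE 0.17) were lower, 3 of 77 where 12.7% of all genes were called lower. RpL23 was at 1618 and 1671 CPM in block 1, at 656 to 1129 in block 2 and at 499.9 to 842 in block 3, and RpL36A at 1173 and 1085, at 546 to 844 and at 354 to 544, so that both were highest in block 1 and the groups 1 and 2 did not overlap. RpS2 (0.46) had the next smallest p among positive changes, and RpL38 (-0.35) and RpL21 (-0.47) those among negative changes, and they were not called. No ribosomal protein gene was called by edgeR when either block 1 library was left out, with 7 at an unadjusted p below 0.05 without wild type replicate 1 and 6 without ΔBAH mutAT1 replicate 1; limma-voom and DESeq2 were not run on these subsets. With DESeq2 7 were higher and 5 lower (8.3% and 15.5% of all genes), without the filter on low counts 7 and 9 (4.4% and 11.5%), and without both high libraries of block 2 4 and 12 (8.47% and 13.9%).

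Exon length went with the change between blocks 3 and 2, also among genes outside the family. The classes below are matched by length but not by level, so shares called are not matched for counting precision. The 77 genes had a median of 903 bp of exons (288 to 3835), and 58 of them had at most 1200 bp, whereas the other genes had a median of 2115 bp. Other genes of up to 2000 bp had negative medians as well. In the class of 501 to 800 bp the median was -1.08 over 450 other genes (84.2% lower) and -0.87 over 27 ribosomal protein genes (all lower), in that of 801 to 1200 bp -0.76 over 918 (78.6% lower) and -0.78 over 28 (26 lower), and in that of 1201 to 2000 bp -0.40 over 1975 (56.7% lower) and -0.53 over 17 (16 lower). Up to 500 bp all 3 ribosomal protein genes were lower, against 46.6% of 189 other genes. The 2 longest went against other genes of their length: RpL3, at 2231 bp, fell by 0.76 where 1612 other genes of 2001 to 3000 bp had a median of -0.00, and RpL5, at 3835 bp, fell by 0.44 where 1433 other genes of 3001 to 5000 bp had one of 0.39. Above 5000 bp the median of other genes was 0.81, with 84.1% higher. Across the 7568 other genes with a length, the change correlated with length (Spearman's rho = 0.77), and across the 77 ribosomal protein genes less so (rho = 0.34). These points share the same libraries and are given as a description.

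**Figure D5:**
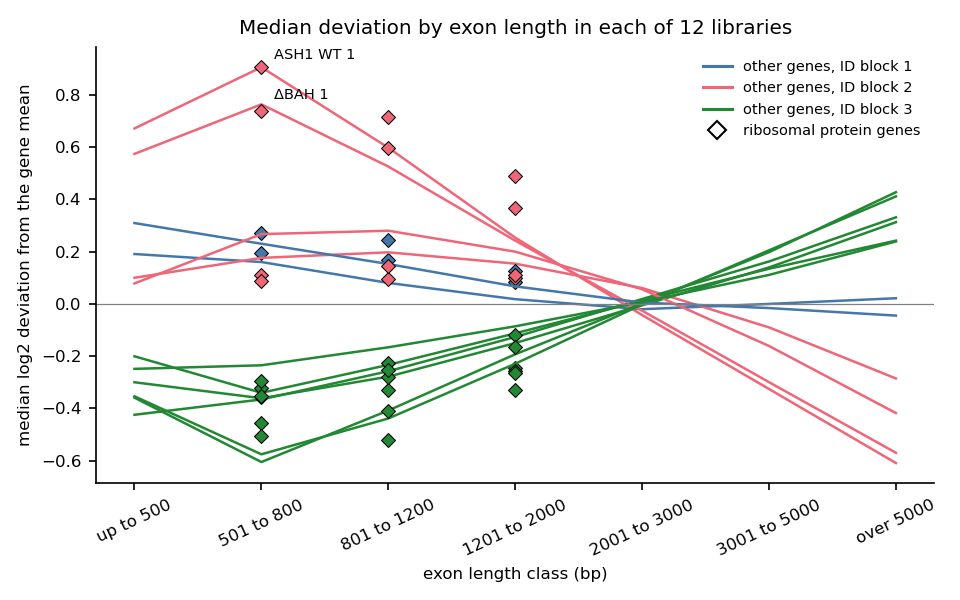
Median log2 deviation from each gene's mean by exon length class; lines are the 12 libraries over all other tested genes, coloured by library ID block, and diamonds are medians of the ribosomal protein genes in the classes that hold at least 15 of them. In ASH1 WT replicate 1 and ΔBAH replicate 1 other genes of 501 to 800 bp stand at 0.91 and 0.76 and those over 5000 bp at -0.61 and -0.57, block 3 libraries show the opposite slope, and the ribosomal protein genes are likewise highest in those libraries and below 0 in block 3. In ASH1 WT replicate 1 they lie farther from 0 than the line at 1201 to 2000 bp (0.49 against 0.25).

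After the trend with exon length was removed from each library, with the trend drawn over genes that are not ribosomal protein genes, the common fall was no longer seen. Block 3 against block 2 then gave 12 of 77 lower and 21 higher with a median of 0.06, where 18.0% of all genes were lower and 18.6% higher. This fit was chosen after seeing the data. The genes separated: RpL22 was higher by 0.72, RpL23 by 0.75 and RpL36A by 0.64, and RpL5 and RpL3, the longest of the family, fell by 0.83 and 0.68. RpS2 still fell by 0.51 and RpS20 by 0.26, while RpS27A and RpS15Aa had 0.08 and 0.01 and were not called. For block 2 against block 1 the same fit gave 15 lower and 1 higher (RpS20), where 8.4% of all genes were lower and 7.59% higher.

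Genes that work with the ribosome were taken from lists, chosen with earlier results of these data known. Of 38 nucleolar genes of ribosome assembly, 0 were called in any of the 6 comparisons between genotypes, and their median was -0.07 in ASH1 WT against wild type. Of 9 genes for RNA polymerase I and its factors 1 fell, Polr1E, a subunit of the enzyme that makes the ribosomal RNA precursor, by 1.12 (SE 0.21) in ASH1 WT, by 1.07 (SE 0.21) in ΔBAH and by 0.96 (SE 0.20) in ΔBAH mutAT1 against wild type (adjusted p = 0.019, 0.022 and 0.035, edgeR). Of 27 translation initiation factors 1 fell, eIF2Bdelta, a subunit of the exchange factor of eIF2, by 0.69 (SE 0.13) in ΔBAH and by 0.72 (SE 0.13) in ΔBAH mutAT1. None of 11 elongation and termination factors was called. Of 18 growth regulators around Myc and TOR, Pdk1, a kinase of the insulin pathway, was called only in the mean of the lines, lower by 0.70 (SE 0.15).

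Xrp1 and Irbp18 encode the transcription factors that respond to loss of a ribosomal protein gene copy. Of 17 tested genes of that response, 1 fell, the metalloproteinase gene Mmp1, by 0.55 (SE 0.11) in ΔBAH mutAT1, and 0 rose in any line. The log2 fold change of Xrp1 against wild type was 0.13 with ASH1 WT, 0.07 with ΔBAH and -0.13 with ΔBAH mutAT1 (SE 0.18 each), and Irbp18 at 0.05, -0.25 and 0.02 (SE 0.23 each).

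The mitochondrial ribosomal protein genes had a median of 779 bp of exons, and the nuclear genes of the respiratory chain 853 bp. Both lists went the same way between ID blocks. In block 3 against block 2, 67 of 68 and 59 of 63 were lower, with medians of -1.04 and -1.05, and 1 respiratory gene was higher. Of all genes 35.0% were lower and 29.2% higher. Genes outside the family of 501 to 800 bp had a median of -1.08 (84.2% lower), and those of 801 to 1200 bp -0.76 (78.6% lower). The nucleolar genes, with a median of 1802 bp, gave 16 lower and 13 higher of 38 and a median of -0.10. Between genotypes 0 of the 68 mitochondrial ribosomal protein genes were called in any comparison with edgeR, and 1 respiratory gene, ATPsynepsilonL, was higher in the mean of the lines.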

How the data were processed

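RNA from wing discs of 4 genotypes was sequenced, with 3 libraries each. Per the study's methods, cDNA fragments were selected by size on a gel, 50-base single-end reads were aligned to dm3 with TopHat2 2.0.9, and reads per gene were counted with HTSeq 0.5.4p3; strand and multiple-mapping options are not given in the sources used here. The authors deposited raw counts, not normalized, in 1 table whose 12 columns were all used.

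Symbols, positions and exon lengths were taken from BDGP6, not dm3. Of the 84 genes, 81 matched by identifier and 3 (RpL19, RpL31, RpS12) through the study's symbols. Gene models of 44 overlap another gene, and 25 hold a snoRNA gene. Tests on the counts used edgeR 4.0.16 under R 4.3.3 (filterByExpr, minimum count 10, TMM, quasi-likelihood, Benjamini-Hochberg adjustment over all genes tested, threshold 0.05) with 1 coefficient per genotype, or genotype plus library ID block for comparisons between blocks; scripts were tested on simulated data. Standard errors were derived from the F statistic. limma 3.58.1 (voom) and DESeq2 1.42.0 were alternatives. 1 member of the family, counted in every total, is not reported here by itself. Named genes were the 5 highest and 5 lowest per length, paralogs and stalk genes, and the smallest p in each comparison; RpL3, RpL5, RpL7A, RpL15, RpS28-like, RpS10a and genes of other fits were added after their values were seen. The members and lists were chosen with earlier results of these data known.

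Equal replicate numbers shared an ID block between wild type and ΔBAH mutAT1 (correlations of deviations 0.513 to 0.667) and between ASH1 WT and ΔBAH (0.648 to 0.900). Libraries of unequal number were not correlated, so a pairing by number beyond the shared block was not tested. The total counts of a library, from 15083960 to 39180697, set its counting precision.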

Additional observations from a re-analysis of the deposited data

How the results depend on the processing

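The count of ribosomal protein genes called between genotypes stayed at 0 under the other tools, scalings and filters and with each library left out, except that the ID block as a covariate gave 1 in ASH1 WT against wild type and 1 in the mean of the lines; with the length trend removed as well, chosen after seeing the data, ASH1 WT gave 5. With the replicate number as a block, the counts of ribosomal protein genes stayed at 0. Over all genes, ΔBAH mutAT1 against ΔBAH went from 4 calls to 2. Replicates 1 and 2 of these genotypes lie in different ID blocks (correlations of deviations 0.005 and -0.561). The fit therefore does not pair libraries in that comparison, nor in ASH1 WT or ΔBAH against wild type. Its counts there say nothing about a paired design. With 1 library left out, medians ranged over -0.34 to 0.37 in ASH1 WT, -0.36 to 0.23 in ΔBAH, -0.09 to 0.20 in ΔBAH mutAT1 and -0.10 to 0.22 in the mean of the lines, all against wild type, -0.49 to 0.40 in ΔBAH against ASH1 WT and -0.15 to 0.42 in ΔBAH mutAT1 against ΔBAH. Without both high libraries the medians were -0.34 in ASH1 WT, -0.39 in ΔBAH and -0.24 in the mean of the lines against wild type. ΔBAH mutAT1 against ΔBAH then gave 0.44. Without its high library, ASH1 WT or ΔBAH kept libraries of ID block 3 only. Block and genotype therefore cannot be told apart in medians that set such a line against wild type or ΔBAH mutAT1. With the ID block as a covariate, ASH1 WT stood at 0.31 against wild type (67 of 77 genes positive), ΔBAH at 0.20 (71) and ΔBAH mutAT1 at 0.07 (58). The mean of the lines then stood at 0.18 (71 positive). This fit gave -0.08 for ΔBAH against ASH1 WT and -0.15 for ΔBAH mutAT1 against ΔBAH. Medians from limma-voom against wild type were 0.03 (ASH1 WT), -0.02 (ΔBAH), 0.07 (ΔBAH mutAT1) and 0.01 (mean of the lines).

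For block 3 against block 2, 67 to 75 genes were called with 1 library left out (median -0.84 to -0.64), 48 without both high libraries, and 33 with the length trend removed (median 0.061). For block 2 against block 1 the count of 7 (4 higher, 3 lower) became 12 with DESeq2 (7 and 5), 16 without the filter on low counts (7 and 9), 16 with the length trend removed (1 and 15), 16 without both high libraries (4 and 12), and 0 to 9 with 1 library left out (0 without wild type replicate 1 or ΔBAH mutAT1 replicate 1, 3 without ASH1 WT replicate 3, 4 without ΔBAH replicate 3); its median was 0.04 to 0.30 with 1 library left out, but -0.11 without both high libraries and -0.13 with the length trend removed. Signs turned for RpL22 in ΔBAH mutAT1 against wild type (-0.10 to 0.0093 with 1 library left out) and in block 3 against block 2 (-0.015 to 0.11 with 1 library left out), for RpL23A in ΔBAH against wild type (-0.0049 without both high libraries), for RpL28 in ΔBAH mutAT1 against ΔBAH (-0.59 to 0.38 with 1 library left out, 0.40 without both high libraries), and with the length trend removed for RpS27A (0.085) and RpS15Aa (0.0052) in block 3 against block 2. The causes were not tested. The share of counts ranged from 8.32% to 17.9% without mitochondrially encoded genes and from 8.75% to 18.7% without the 10 most abundant other genes.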
